A study of Mus musculus with 10 samples.

Results

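The 10 genes studied here code for chemokines, for the growth factors of macrophages and for the receptors of both. They were followed in dorsal root ganglia, where the cell bodies of sensory neurons lie along the spinal cord. Members were found by gene name in the deposited count table, 1 row each, and make up 10 of 40481 distinct genes. The genes were selected on their role by someone who had seen results of this same contrast, so their differences between the groups are a description here and do not stand as independent evidence. The ganglia came from C57BL/6 mice, 5 libraries after oxaliplatin at 10 mg/kg and 5 after vehicle. The design text gives 8 weeks of treatment with the drug, a platinum compound used against cancer that damages sensory nerves. The animals carry no allele or other agent that the labels name, no source used here gives their age, and the labels do not say in words that each library is a separate animal. The p-values therefore measure the spread between these samples, which may be technical.

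Chemokines are small secreted proteins that bind G protein-coupled receptors and guide the migration of cells. Several of the axes here have well-known roles around sensory neurons: Cx3cl1 (fractalkine), which neurons can display on their membrane, and its receptor Cx3cr1 on monocytes and macrophages; Ccl2, which draws in monocytes through Ccr2; and Cxcl12, which signals through Cxcr4 and is taken up by the scavenger receptor Ackr3. Csf1 and Il34 are unrelated in sequence but share the receptor Csf1r, on which the survival of macrophages depends. After nerve injury sensory neurons are known to switch on Csf1.

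Each library held 52963470 to 60984426 counted reads. Markers of sensory neurons summed to 13150 to 17250 CPM (read counts scaled to an equal library size) and those of Schwann cells to 7329 to 10880 CPM, so every library held the defining transcripts of the labelled tissue. The neuron sum was lower in the drug group without overlap (13150 to 15380 against 15720 to 17250 CPM). Of 7 markers 1, the neurofilament gene Nefl, was called lower (2590 to 3542 against 4014 to 4574 CPM). Tubb3, the most abundant, held 7228 to 8859 against 8630 to 10220 CPM (log2 fold change -0.20, not called). The log2 fold changes of the rest were 0.01 for Rbfox3, 0.09 for Prph, 0.08 for Avil, -0.05 for Isl1 and -0.09 for Scn10a. The sum thus followed its most abundant markers and not the list as a whole. A pair of libraries, later left out together, stood apart in genes outside the set. Another, vehicle replicate 2, is described with Cx3cr1 below. Oxaliplatin replicate 1 had 675 CPM of summed adipocyte markers against 8.01 to 46.4 CPM in the other libraries. Vehicle replicate 5 had 189 CPM of Sprr1a and 176 CPM of Atf3, both known to rise in injured sensory neurons, against at most 11.6 and 32.4 CPM in the other vehicle libraries. Of the 10 genes, 8 had their highest vehicle value in that replicate (all but Cxcr4 and Il34), while 23.4% of all tested genes did. Values without it are given where leaving it out moved a result of the genes described here.

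The stretches of 250 bases before the RefSeq start of Cxcl12, Ackr3 and Csf1 are shown because the first pair, a ligand and its scavenger receptor, were both called higher after the drug, and because Csf1 varied most among libraries of 1 group. They are written 5′ to 3′ on the strand of the gene (GRCm38.p6, a build not tied to the counts), and capitals mark every match to 5 motifs, searched on both strands. The GC box was searched as GGGCGG. The TATA box was searched as TATAAA. The core of the site of PU.1, a factor of myeloid cells, was searched as GAGGAA. The core of the hypoxia element was searched as ACGTG. A form of the NF-kB site was searched as GGACTTTCC.

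Cxcl12, chr6:117168285-117168534, plus strand: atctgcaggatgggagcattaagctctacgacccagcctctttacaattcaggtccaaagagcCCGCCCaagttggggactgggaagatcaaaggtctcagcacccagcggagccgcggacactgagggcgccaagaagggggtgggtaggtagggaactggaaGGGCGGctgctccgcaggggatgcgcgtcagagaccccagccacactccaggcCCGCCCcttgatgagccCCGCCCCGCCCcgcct
Ackr3, chr1:90203730-90203979, plus strand: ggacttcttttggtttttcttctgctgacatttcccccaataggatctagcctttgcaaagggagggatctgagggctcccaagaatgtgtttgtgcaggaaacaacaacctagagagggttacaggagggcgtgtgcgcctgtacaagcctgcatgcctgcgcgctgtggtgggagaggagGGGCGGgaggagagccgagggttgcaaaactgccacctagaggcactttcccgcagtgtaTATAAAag
Csf1, chr3:107760470-107760719, minus strand: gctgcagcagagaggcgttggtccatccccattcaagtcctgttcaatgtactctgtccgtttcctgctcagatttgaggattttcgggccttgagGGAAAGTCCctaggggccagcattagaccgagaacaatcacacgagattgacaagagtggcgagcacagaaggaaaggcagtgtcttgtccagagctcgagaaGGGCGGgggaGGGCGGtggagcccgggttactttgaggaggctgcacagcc

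The Cxcl12 stretch held 5 GC boxes, which begin at positions -187, -86, -33, -16 and -11 from the start, the last pair overlapping by 1 base, and its GC content was 64.4%. Ackr3 had 1 GC box, at -68, and a TATAAA at -8. Among 27025 promoter stretches of the same length, 32.9% held at least 1 GC box and 12.97% a TATAAA, and the median GC content was 52.0%. The Csf1 stretch held the NF-kB form at -154, which 0.281% of all stretches had, beside GC boxes at -51 and -41. Cxcr4, the signalling receptor of Cxcl12, had 3 GC boxes in its 250 bases and TATAAA at -32 and -30. Those TATAAA matches lie on opposite strands and overlap, so they mark 1 short stretch. In Cx3cl1, GAGGAA began at -93 and -66 (23.1% of stretches hold it), GGGCGG at -27 and TATAAA at -6. ACGTG (in 16.6% of stretches) was not matched in any of the 7 stretches, and in those of Cx3cr1 and Ccr2 none of the 5 motifs was. A match describes letters, not a bound site, and an absent one says only that these letters are not in the window. Of the 10 genes 7 matched an entry, and those without are Ccl2, Csf1r and Il34.

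Levels can be compared between genes only per length, so CPM were divided by kilobases of merged exon in GENCODE M21 (no source used here names the annotation behind the counts). In vehicle ganglia Il34 was highest, at 23.6 ± 3.99 CPM per kilobase (SD, n = 5), followed by Ccl2 at 10.7 ± 4.03, Csf1 at 3.39 ± 1.77, Ackr3 at 3.29 ± 0.366 and Cxcl12 at 2.06 ± 0.405. Csf1r stood at 1.72 ± 0.120, Cx3cl1 at 0.978 ± 0.168, Cxcr4 at 0.924 ± 0.168, Cx3cr1 at 0.737 ± 0.342 and Ccr2 at 0.353 ± 0.0995. Neighbours in this order whose libraries overlapped, and which are therefore not separated beyond their spread, were Csf1 and Ackr3, Cxcl12 and Csf1r, and each step from Cx3cl1 down to Ccr2. Both CSF1R ligands lay above the receptor on average, but in vehicle replicate 3 Csf1 (1.72) lay just below it (1.75). After oxaliplatin Il34 was still first at 24.7 ± 2.43 CPM per kilobase. Ccl2, at 4.40 ± 1.14, then overlapped with Ackr3 at 4.72 ± 0.909, and Cx3cr1, at 0.222 ± 0.0803, overlapped with Ccr2 at 0.243 ± 0.0821 at the bottom.

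**Figure D1:**
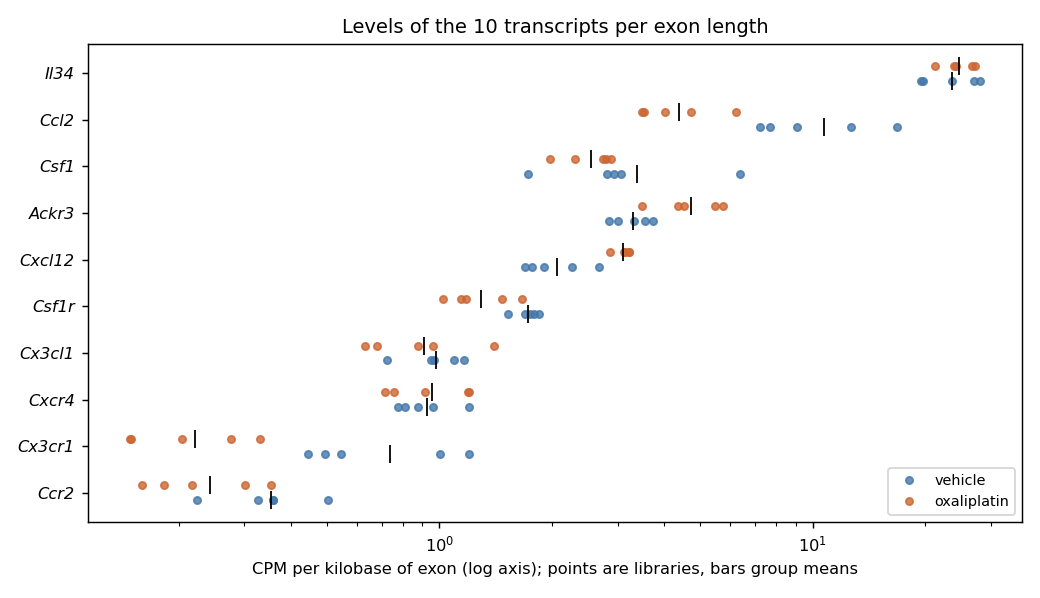
CPM per kilobase of exon (log axis) for the 10 transcripts in each library (points; vehicle blue, oxaliplatin orange; bars are group means, n = 5). Il34 lies above every other transcript in both groups, and the oxaliplatin points of Cx3cr1 (0.148 to 0.330) reach the range of Ccr2.

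All 10 genes passed the filter on low counts. In the edgeR fit over 18401 genes, 2 of the 10, Cxcl12 and Ackr3, were called higher after oxaliplatin and 2, Cx3cr1 and Ccl2, lower (adjusted p below 0.05). The background was 1.27% of tested genes called higher and 0.772% called lower (234 and 142 genes; 303 and 99 without a composition factor). The groups did not overlap for Cxcl12, on the higher side, and for Cx3cr1 and Ccl2, on the lower side, against 2.25% and 1.77% of all tested genes. Because these genes were selected with the contrast known, nothing is read from the difference to the background. Of the 10 log2 fold changes 4 were above 0, with a median of -0.26, beside 0.01 for all tested genes. The 4 genes called were thus split evenly between directions, and no direction was shared by all ligands or all receptors.

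**Figure D2:**
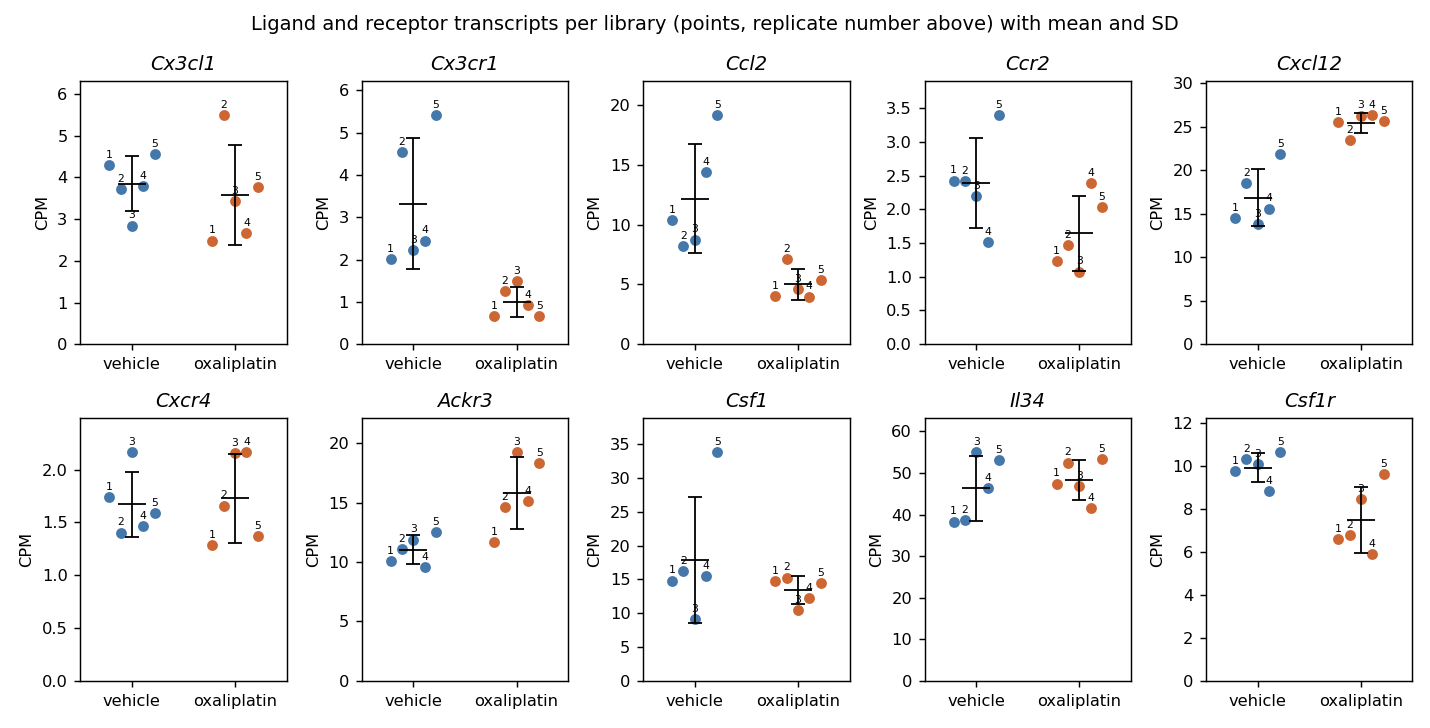
CPM of each gene in every library (points, replicate number above), with group mean and SD (n = 5 per group). For Cx3cr1 and Ccl2 all oxaliplatin points lie below all vehicle points, for Cxcl12 all lie above, and vehicle replicate 5 is the highest vehicle point in 8 of the 10 panels.

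Among the ligands, Cx3cl1, the membrane-bound chemokine, ranged from 2.49 to 5.49 CPM after oxaliplatin (median 3.44) and from 2.84 to 4.57 CPM after vehicle (median 3.79). For Cx3cl1 the vehicle range lay wholly inside the wider oxaliplatin range. Of the oxaliplatin libraries 2 lay below every vehicle library, and 1, replicate 2, was the highest of all. Its log2 fold change of -0.11 ± 0.21 (SE, edgeR adjusted p = 0.862) moved to -0.31 when that library was left out.

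Ccl2, the attractant of monocytes, stood at 10.4, 8.22, 8.74, 14.4 and 19.1 CPM in vehicle replicates 1 to 5. After oxaliplatin it stood at 4.01, 7.09, 4.58, 3.97 and 5.36 CPM. Every oxaliplatin library lay below every vehicle library, with 7.09 against 8.22 CPM as the nearest pair. The level was 2.43-fold lower (5.00 ± 1.30 against 12.2 ± 4.59 CPM, SD, n = 5 and 5; log2 fold change -1.28 ± 0.25, edgeR adjusted p = 0.0256). Leaving out vehicle replicate 5 gave -1.06 (edgeR adjusted p = 0.0192). Of 10 fits that left out 1 library, 4 kept the call. It was lost, with edgeR adjusted p values of 0.0691, 0.0606, 0.0811 and 0.0798, when oxaliplatin replicate 1, 3, 4 or 5 was dropped, and of 0.0503 and 0.0731 when vehicle replicate 1 or 4 was. With no filter on low counts it was at 0.0537. Ccl2 has close relatives, and no source used here says how reads shared with them were counted. Of these, Ccl12, another ligand of Ccr2, was at 0.33 ± 0.36 (edgeR adjusted p = 0.709) and Ccl7, which also binds it, at -0.49 ± 0.29 (edgeR adjusted p = 0.437).

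Cxcl12, a chemokine of stromal and endothelial cells, was the most even of the 10 within the drug group. Its oxaliplatin libraries held 25.5, 23.4, 26.3, 26.3 and 25.7 CPM, a coefficient of variation of 4.62%. The vehicle libraries held 14.5, 18.5, 13.8, 15.6 and 21.8 CPM, with a coefficient of variation of 19.7%. The groups did not overlap, and the closest values were 23.4 CPM after the drug and 21.8 CPM in vehicle replicate 5. The difference was 1.51-fold (25.4 ± 1.18 against 16.9 ± 3.31 CPM, SD, n = 5 and 5; log2 fold change 0.59 ± 0.11, edgeR adjusted p = 0.0145). Without vehicle replicate 5 it was 0.71 (edgeR adjusted p = 0.00224). The call was lost without oxaliplatin replicate 4 (edgeR adjusted p = 0.0514) or vehicle replicate 4 (0.0565).

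Markers of cells known to make Cxcl12 were set beside it. Most of them were not called and 0 were called lower, while of all tested genes 1.27% were called higher and 0.772% lower. The marker lists were drawn up with earlier results of these data known, so nothing is read from the difference. Endothelial markers summed to 76.5 to 84.8 CPM after oxaliplatin and 54.3 to 78.2 CPM after vehicle, with 2 of 7 called higher (Pecam1 at 0.98 ± 0.18 and Cdh5 at 0.69 ± 0.17) and 0 lower, while Emcn was at -0.04 and Tek at 0.01. The overlap of these sums came from vehicle replicate 5 (78.2 CPM), the other vehicle libraries reaching at most 64.5 CPM. Pericyte markers summed to 114 to 162 against 99.7 to 132 CPM, with 2 of 5, Kcnj8 and Abcc9, called higher. Fibroblast markers summed to 797 to 1014 against 639 to 873 CPM, with 1 of 5, Pdgfra, called higher. Most of this sum was Dcn, at 660 to 848 against 471 to 689 CPM (0.47 ± 0.12, edgeR adjusted p = 0.071). Col1a1 was at -0.16, Col3a1 at -0.05 and Lum at -0.42. Every marker of these lists had more than 3 reads in some library, and their part in the level of Cxcl12 was not tested. In whole ganglia, more or fewer cells of a type and more or less RNA per cell cannot be told apart.

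Csf1, the growth factor of macrophages, held 14.8, 16.2, 9.10, 15.5 and 33.8 CPM in vehicle replicates 1 to 5 and 14.7, 15.3, 10.5, 12.2 and 14.5 CPM after oxaliplatin. Vehicle replicate 5, the library with high Sprr1a and Atf3, stood 2.43-fold above the mean of the other vehicle libraries, and the remaining 9 libraries overlapped. With all libraries the difference was -0.41 ± 0.31 on the log2 scale (edgeR adjusted p = 0.576), and with that 1 left out it was -0.05 (edgeR adjusted p = 0.930).

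Il34, the other ligand of Csf1r, ranged from 41.6 to 53.3 CPM after oxaliplatin (median 47.4) and from 38.3 to 55.0 CPM after vehicle (median 46.4). The difference of 0.06 ± 0.11 on the log2 scale (edgeR adjusted p = 0.842) stayed between 0.00 and 0.14 over 18 other fits. The oxaliplatin range lay wholly inside the vehicle range.

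Among the receptors, Cx3cr1, which binds Cx3cl1, had the largest difference of the 10. Vehicle libraries held 2.01, 4.53, 2.22, 2.45 and 5.41 CPM (111, 242, 124, 144 and 290 reads). Oxaliplatin libraries held 0.671, 1.25, 1.49, 0.921 and 0.668 CPM (37, 73, 87, 57 and 40 reads). No oxaliplatin library reached the lowest vehicle value, and the vehicle values fell into 3 near 2 CPM and a pair, replicates 2 and 5, above 4 CPM. The level was 3.32-fold lower (0.999 ± 0.362 against 3.32 ± 1.54 CPM, SD, n = 5 and 5; log2 fold change -1.73 ± 0.32, edgeR adjusted p = 0.0145). Dropping vehicle replicate 5 gave -1.49, and dropping oxaliplatin replicate 1 as well gave -1.37 (edgeR adjusted p = 0.0213 and 0.0405). The call was lost without oxaliplatin replicate 4 (edgeR adjusted p = 0.0581) or 5 (0.0539).

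Csf1r, the kinase receptor carried by macrophages, held 9.77, 10.3, 10.1, 8.84 and 10.7 CPM in vehicle libraries, a coefficient of variation of 6.99%. After oxaliplatin it held 6.61, 6.79, 8.48, 5.91 and 9.63 CPM. In 4 of 5 drug libraries it was below every vehicle library, and replicate 5 lay among them. Its log2 fold change of -0.41 ± 0.13 did not pass the threshold (edgeR adjusted p = 0.125). DESeq2 put it just past the threshold (adjusted p = 0.0471), and so did edgeR with the replicate number as a block (adjusted p = 0.0496).

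Ccr2, the receptor of Ccl2 on monocytes, ranged from 1.08 to 2.39 CPM after oxaliplatin (median 1.47) and from 1.51 to 3.39 CPM after vehicle (median 2.41). In 3 of 5 drug libraries it was below every vehicle library, and the other two overlapped with them (log2 fold change -0.54 ± 0.25, edgeR adjusted p = 0.302; -0.38 without vehicle replicate 5, and -0.29 without oxaliplatin replicate 1 as well).

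Cxcl12 has a pair of receptors among the 10 genes. Cxcr4, the signalling receptor, ranged from 1.29 to 2.17 CPM after oxaliplatin and from 1.40 to 2.16 CPM after vehicle, with the groups overlapping throughout (log2 fold change 0.05 ± 0.21, edgeR adjusted p = 0.946). Ackr3, which removes Cxcl12 by internalising it, held 11.7, 14.6, 19.3, 15.1 and 18.3 CPM after oxaliplatin. Its vehicle libraries held 10.1, 11.1, 11.9, 9.54 and 12.5 CPM. In 4 of 5 drug libraries it exceeded every vehicle library, and replicate 1 fell within the vehicle range. The difference was 1.43-fold (15.8 ± 3.04 against 11.02 ± 1.23 CPM, SD, n = 5 and 5; log2 fold change 0.52 ± 0.13, edgeR adjusted p = 0.0460), close to the threshold. Of the 10 fits that left out 1 library, 3 kept the call (those that dropped oxaliplatin replicate 1 or 2 or vehicle replicate 5). The edgeR adjusted p was 0.0958, 0.0940 and 0.147 when oxaliplatin replicate 3, 4 or 5 was dropped. It was 0.105, 0.0690, 0.0564 and 0.141 when vehicle replicate 1, 2, 3 or 4 was dropped. The log2 ratio of Cxcl12 to Ackr3 in a library was 0.71 ± 0.27 after oxaliplatin and 0.60 ± 0.24 after vehicle (SD, n = 5 and 5), with overlap. That of Cxcl12 to Cxcr4 was 3.89 ± 0.33 against 3.30 ± 0.46, also with overlap.

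**Figure D3:**
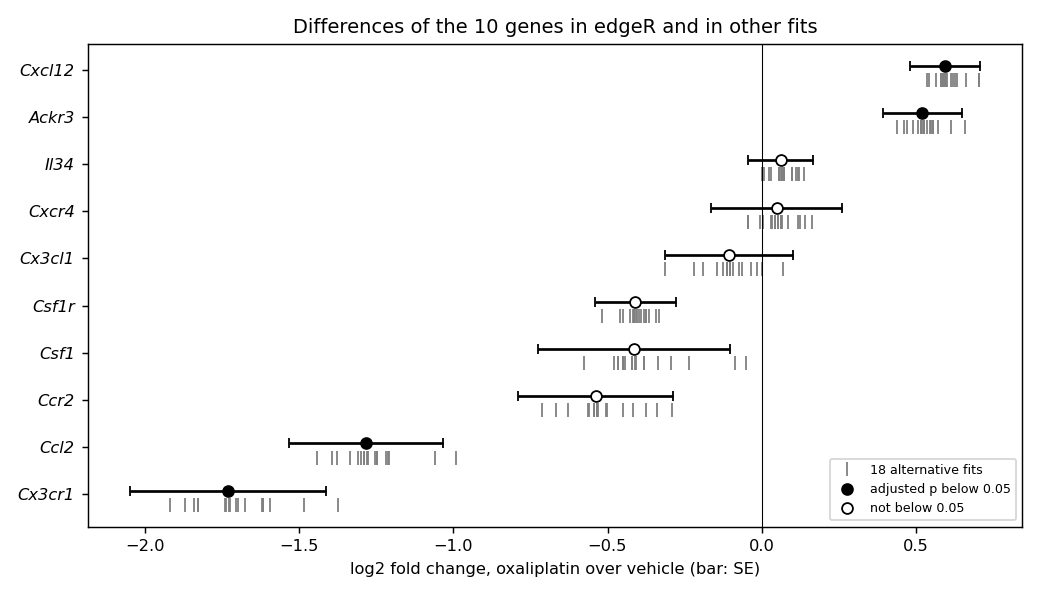
Log2 fold change of oxaliplatin over vehicle for each gene in the edgeR fit (circles with SE; filled where the adjusted p is below 0.05) and in 18 other fits (grey ticks). Cx3cr1 (-1.73) and Ccl2 (-1.28) stay below 0 and Cxcl12 (0.59) and Ackr3 (0.52) above 0 in all 18, while the ticks of Cx3cl1 and Cxcr4 lie on both sides of 0.

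Since Cx3cr1, Csf1r and, in part, Ccr2 are carried by macrophages, genes of these cells were set beside them. The shares called among all tested genes were 1.27% higher and 0.772% lower. Of 16 macrophage markers 1 was called lower, Cd74, the escort of MHC class II molecules, and 1 higher, Mertk, a receptor for the uptake of dying cells, at a median log2 fold change of -0.02. Their summed level was 171 to 209 CPM after oxaliplatin and 254 to 347 CPM after vehicle, without overlap. That difference came from Cd74, which held 24.1 to 47.9 against 124 to 209 CPM. The other 15 markers together were not lower, at 144 to 175 CPM (median 147) against 128 to 175 CPM (median 138). This split was made after the values were seen. Cx3cr1 relative to Csf1r was lower after the drug in every library, with a log2 ratio of -2.91 ± 0.59 against -1.69 ± 0.58 (SD, n = 5 and 5). That of Ccr2 to Csf1r was -2.20 ± 0.59 against -2.08 ± 0.32, with overlap. Aif1, a cytoskeletal protein of macrophages, was at -1.40 ± 0.34 (edgeR adjusted p = 0.0537), and its libraries did not overlap either, at 1.03 to 2.04 against 2.33 to 7.92 CPM. Mertk held 18.1 to 20.7 against 8.19 to 12.4 CPM (log2 fold change 0.88 ± 0.12, edgeR adjusted p = 0.00215). Lyve1, a hyaluronan receptor of tissue macrophages and lymph vessels, was at 0.64 ± 0.16 (edgeR adjusted p = 0.0526), and the complement gene C1qb at -0.11 ± 0.19 (edgeR adjusted p = 0.841). Microglia-type markers summed to 7.09 to 10.5 against 9.10 to 12.7 CPM with 0 of 4 tested members called, and monocyte and neutrophil markers to 13.8 to 41.6 against 9.35 to 40.3 CPM with 1 of 6, F13a1, called higher (0.96 ± 0.19, edgeR adjusted p = 0.0211). Lymphocyte markers summed to 3.57 to 5.13 against 5.25 to 6.83 CPM, without overlap, and 0 of 4 were called. Satellite glia markers summed to 267 to 332 against 348 to 473 CPM, also without overlap, and the lower sum came mainly from Fabp7. Among 4 markers Fabp7 was called lower (91.3 to 178 against 210 to 312 CPM) and Glul higher (119 to 164 against 100 to 121 CPM). Kcnj10, at -0.41, and Slc1a3, at -0.13, were not called. Which cells of the ganglion made the Cx3cr1 transcript was not measured, and the part of these cell types in its level was not tested.

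**Figure D4:**
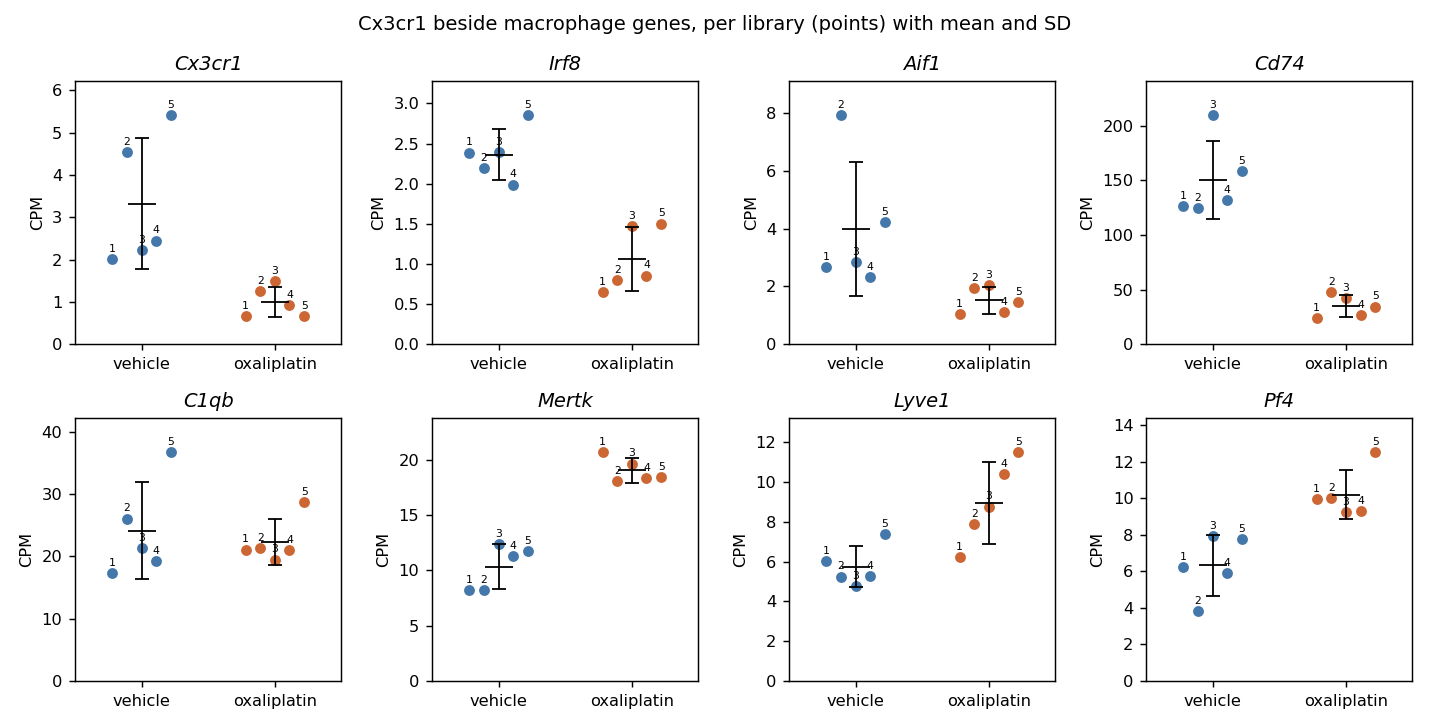
CPM of Cx3cr1, 5 macrophage markers (Aif1, Cd74, C1qb, Mertk, Lyve1), the myeloid factor Irf8 and the chemokine Pf4 in each library (points, replicate number above), with mean and SD (n = 5 per group). Oxaliplatin points lie below all vehicle points for Cx3cr1, Irf8, Aif1 and Cd74, above all of them for Mertk and Pf4, and overlap for C1qb and Lyve1.

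The other genes of the pathways were taken from lists drawn up by role, with earlier results of these data known. Beside the counts below stand 1.27% of all tested genes called higher and 0.772% called lower by edgeR. For the same reason nothing is read from the difference to these shares. Of 22 tested other chemokine ligands 2 were called higher and 0 lower (7 had an unadjusted p below 0.05, and DESeq2 called 3 higher and 0 lower), with a median log2 fold change of 0.25. Ccl6, a chemokine that myeloid cells make, held 3.44 to 9.01 CPM after oxaliplatin and 1.34 to 3.45 CPM after vehicle, with contact between the groups only at vehicle replicate 5 and oxaliplatin replicate 2 (2.76-fold, log2 fold change 1.47 ± 0.32, edgeR adjusted p = 0.0370). Pf4, a chemokine of platelets and of some tissue macrophages, held 9.25 to 12.5 against 3.84 to 7.92 CPM, without overlap (1.61-fold, 0.69 ± 0.17, edgeR adjusted p = 0.0436). The calls of both were lost in 7 of 10 fits that left out 1 library, with edgeR adjusted p values of up to 0.112 for Ccl6 (without vehicle replicate 4) and 0.138 for Pf4 (without oxaliplatin replicate 5). Ccl6 was also lost with no filter (0.0766) and Pf4 without oxaliplatin replicate 1 and vehicle replicate 5 together (0.0591). The remaining 13 rows of this list, with Ccl3, Ccl4 and Cxcl2 among them, were below the filter on low counts.

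Of 11 tested other chemokine receptors 0 were called, and 3 had an unadjusted p below 0.05 (edgeR). DESeq2 called Ackr2 higher and Ackr1 lower, and limma voom called 0. Ackr2, a scavenger of inflammatory CC chemokines, held 0.272 to 1.002 CPM after oxaliplatin and 0.0932 to 0.449 CPM after vehicle (log2 fold change 1.61 ± 0.44, edgeR adjusted p = 0.0713). Ackr1, which carries chemokines across the walls of venules, was at -0.26 ± 0.08 (edgeR adjusted p = 0.103). Ackr4, which clears lymphoid chemokines, was at 0.57 ± 0.30 (edgeR adjusted p = 0.357).

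Of 9 tested other colony-stimulating factors and receptors 0 were called, with 2 at an unadjusted p below 0.05 (edgeR). DESeq2 called Kit higher and Flt3 lower, and limma voom called Flt3 lower. Kit, the receptor of stem cell factor, was at 0.30 ± 0.09 (edgeR adjusted p = 0.0819), and Flt3, a related kinase receptor, at -0.31 ± 0.10 (edgeR adjusted p = 0.113). Kitl, the ligand of Kit, was at -0.19 ± 0.10 (edgeR adjusted p = 0.372). The ligand gene Flt3l and the older names of 2 kinases on the signalling list matched no row by name.

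Of 16 genes of CSF1R signalling and myeloid regulation 1 was called lower and 0 higher, at a median of -0.16 (4 had an unadjusted p below 0.05). DESeq2 also called Pik3r1, a subunit of PI3 kinase, higher. Irf8, a transcription factor of monocytes and dendritic cells, held 0.653 to 1.502 CPM after oxaliplatin and 1.99 to 2.85 CPM after vehicle, without overlap (2.23-fold lower, log2 fold change -1.16 ± 0.24, edgeR adjusted p = 0.0226). Its call was lost without oxaliplatin replicate 1 (0.0517) or 4 (0.0729) or vehicle replicate 1 (0.0503), as edgeR adjusted p values, and without oxaliplatin replicate 1 and vehicle replicate 5 together (0.0890). Spi1, which codes for PU.1, was at -1.35 ± 0.48 (edgeR adjusted p = 0.165), and Tyrobp, an adaptor of myeloid receptors, at -0.59 ± 0.23 (edgeR adjusted p = 0.211).

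Among 9 enzymes that shed or cut these ligands 1 was called lower and 0 higher (2 had an unadjusted p below 0.05, DESeq2 also called Dpp4 higher, and limma voom called 0). Ctss, a macrophage protease that can release Cx3cl1 from membranes, held 5.24 to 7.18 CPM after oxaliplatin and 6.98 to 12.9 CPM after vehicle (log2 fold change -0.73 ± 0.17, edgeR adjusted p = 0.0394). It kept the call in 2 of 10 fits that left out 1 library, when vehicle replicate 1 or 4 was dropped, and reached an edgeR adjusted p of 0.120 when oxaliplatin replicate 4 was. It was 0.0801 with vehicle replicate 5 left out, 0.158 with oxaliplatin replicate 1 left out too, and in limma voom 0.0937. Adam10 and Adam17, the main sheddases of Cx3cl1, were at -0.01 ± 0.08 and -0.07 ± 0.12 (edgeR adjusted p = 0.955 and 0.831). Dpp4, which trims and inactivates Cxcl12, was at 1.69 ± 0.50 (edgeR adjusted p = 0.126), with 1.34 to 6.31 CPM against 0.476 to 1.87 CPM.

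Of 17 tested genes of signalling behind chemokine receptors 0 were called, with 5 at an unadjusted p below 0.05 (edgeR) and a median of 0.00. DESeq2 and limma voom each called 1 lower, Arrb1. Arrb1, a beta-arrestin that ends receptor signalling, was at -0.27 ± 0.08 (edgeR adjusted p = 0.0769), Vav1, an exchange factor of blood cells, at -0.90 ± 0.35 (edgeR adjusted p = 0.204), and Dock2, which blood cells need to move towards chemokines, at -0.44 ± 0.17 (edgeR adjusted p = 0.211).

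**Figure D5:**
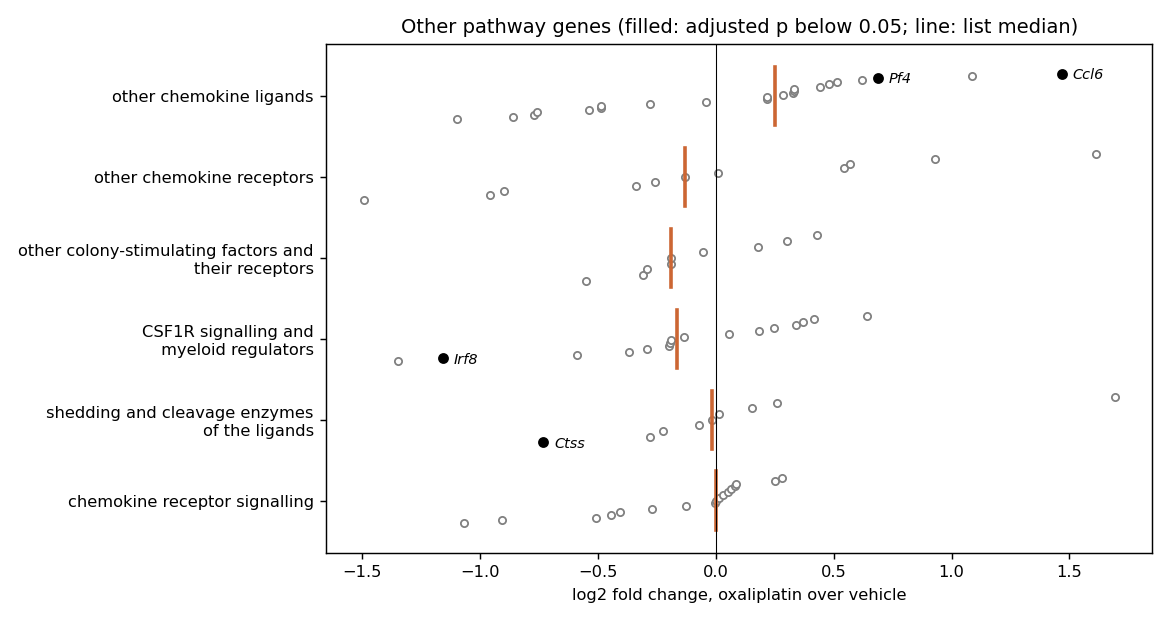
Log2 fold change of oxaliplatin over vehicle for the tested genes of the 6 pathway lists (circles; filled where the edgeR adjusted p is below 0.05; vertical line is the list median). Of the filled points Ccl6 and Pf4 lie above 0 and Irf8 and Ctss below it, and the list medians lie between -0.19 and 0.25.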

How the data were processed

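RNA sequencing measured gene expression in 10 libraries, 5 per group, grouped by the labels' titles. The table the authors deposited gives unnormalized counts by Ensembl gene. The submitters' processing notes name STAR 2.5.1a, DESeq2 and Partek without their roles. No source used here gives build, annotation, strand or counting step. Of 40757 rows, 276 repeated an ID with identical counts and were dropped. All pairs within a group differed beyond counting noise (chi-square at least 12.04 per degree of freedom).

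The main test was edgeR's quasi-likelihood test (4.0.16, R 4.3.3; filterByExpr, TMM, robust, no covariates), with p adjusted by Benjamini-Hochberg over 18401 genes and a threshold of 0.05. Each SE was obtained from the log2 fold change and its F. CPM use TMM-scaled library sizes, and log2 ratios a prior count of 2. The fit was tested on simulated data. Promoter letters come from RefSeq. The 10 genes, gene lists and tests were chosen with earlier results of these data known. Named were the 10 genes and, of each pathway list, called genes and otherwise the 3 of smallest p. A gene that this rule would name is not reported here. The single markers of cell types, Ccl7, Ccl12, Ackr4, Pik3r1, Spi1, Tyrobp, Dpp4, Adam10, Adam17, Sprr1a and Atf3 were named after their values were seen. Likeness is Pearson's r of log2 CPM after removing group means, among genes with a mean of at least 2 CPM. Alternatives were RLE or no composition factors, no or a stricter filter (1 CPM in 5 libraries), DESeq2 1.42.0 and limma 3.58.1 voom. Further ones were the replicate number as a block, and libraries left out. The fit called limma voom here used quality weights, which give each library its own weight.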

Additional observations from a re-analysis of the deposited data

Results flagged for a closer look

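For each of the 10 genes, the highest and lowest library of each group was compared with the others (20 groups, of which chance marks about 1 in 20). In 2 groups a library lay far from the rest. Csf1 in vehicle replicate 5 stood at 33.8 CPM, while the other vehicle libraries held 9.10 to 16.2 CPM. Cxcl12 in oxaliplatin replicate 2 stood at 23.4 CPM, just below the other oxaliplatin libraries at 25.5 to 26.3 CPM, and the gap stands out because those 4 lay so close together. The cause of either was not tested.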

How the results depend on the processing

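Over 18 other fits of each of the 10 genes (180 in all), 160 kept their side of the threshold, 18 lost a call, 2 gained one (Csf1r) and no called gene changed sign. Counts of all genes called higher and lower were 234 and 142; they were 521 and 406 with DESeq2, 439 and 342 with limma voom, and 142 and 76 with vehicle replicate 5 and oxaliplatin replicate 1 left out together. Without 1 library they ranged from 79 to 343 and from 34 to 251. Of the 10 genes, 2 were called higher and 2 lower; both ranged from 0 to 2 without 1 library, and 1 was lower with no filter. Over the pathway lists 2 were higher and 2 lower; 7 and 5 were with DESeq2, 0 were lower without both doubted libraries, and without 1 library the counts ranged from 0 to 3 and from 0 to 2. The cause was not tested. With the replicate number as a block, 382 genes were higher and 278 lower, and 6 list genes higher. Same-numbered libraries correlated at -0.04 to 0.21 in their deviations, and 6 of 10 correlated best with their own number, a hint of pairing from the data. The labels do not say what a number stands for and the correlation was not above 0 in every pair, so the numbers were not used as pairs. Depth limits Cx3cr1 (37 to 290 reads a library), Ccr2 and Cxcr4 most among the 10.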

Other observations

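The genes whose pattern across the 10 libraries was most like that of each ligand or receptor, after group means were removed, were ranked among 12147 genes (12148 for Cxcr4). For Il34 the highest were Plekhb1 (r = 0.958) and Tmed10 (0.955), and Pmp22, a protein of compact myelin, was among the 5 highest (0.951). For Csf1 they were Itga7, an integrin chain (0.968), Zfp536 (0.957) and Socs3, a brake on cytokine signalling (0.953). Without vehicle replicate 5 these values for Csf1 were 0.916, 0.886 and 0.883 over 9 libraries. For Ackr3 they were Dapl1 (0.950), the organic anion transporter Slc22a8 (0.934), the growth factor Igf2 (0.931), the connexin Gjb6 (0.928) and the tight-junction protein Cldn11 (0.920). For Csf1r they included the solute carriers Slc13a3 (0.905) and Slc6a13 (0.885). For Cxcl12 the highest were Lmo7 (0.948), Prkd2 (0.937), Limd1 (0.915) and Tie1, a receptor of endothelial cells (0.890). Leaving out vehicle replicate 5 lowered these values for Cxcl12 to 0.872, 0.860, 0.794 and 0.734 over 9 libraries. With so many genes and 10 libraries, high values are common, and the points share depth and group-mean removal, so these are descriptions only.

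The log2 ratio of Ccl2 to Csf1 was -1.44 ± 0.31 after oxaliplatin and -0.49 ± 0.41 after vehicle (SD, n = 5 and 5), without overlap. That of Csf1 to Il34 was -1.85 ± 0.18 against -1.49 ± 0.71, with overlap.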
